A study of Mus musculus with 10 samples.

Results

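Transcript levels of the aminoacyl-tRNA synthetase genes were examined in 10 mouse mammary tumours. The genes were the protein-coding entries of the count table with a symbol of 1 letter, "ars" and an optional 1 or 2, together with Farsa, Farsb, Eprs and the editing factor Aarsd1. This rule found 38 of 55335 genes, of which 20 encode cytosolic enzymes, 17 encode mitochondrial enzymes and 1 is Aarsd1. The tumours came from mammary epithelial cells of Wap-Myc mice, in which the Wap promoter drives the Myc oncogene in the mammary gland. The cells were transduced with the lentiviral construct pIND21-HPN at a multiplicity of infection of 10 and placed in fat pads of hosts aged 3 weeks. Hosts of the 5 DOX tumours drank doxycycline, 2 mg/ml in 5% sucrose, from 3 days after transplantation, and hosts of the 5 no_DOX tumours received sugar water. All 10 tumours therefore carried the transgene and the construct in the FVB background, had Myc induced from 8 weeks of age by 2 pregnancies, and were taken at a diameter of 1 cm. Doxycycline itself and induction of hepsin cannot be told apart in this design. Whether the tumours grew in separate hosts is not stated, and p-values here describe the spread among the 10 tumours, which may in part be technical.

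Aminoacyl-tRNA synthetases attach each amino acid to its matching tRNA and so fix how the genetic code is read. The cytosol and the mitochondrion use separate enzymes for most amino acids, all encoded in the nucleus, while Gars and Kars supply both compartments and Eprs joins the glutamate and proline activities in 1 polypeptide. Several cytosolic enzymes are held with scaffold proteins in the multi-synthetase complex. Many cytosolic synthetase genes are induced by the transcription factor ATF4 when amino acids run short, and synthetase genes are also among the biosynthetic genes that respond to Myc.

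Counts per tumour summed to 14256948 to 20469533, except in DOX 3, which had 39358457. The 38 genes held 0.289 to 0.364% of these counts, all 38 passed the filter on low counts that left 16167 genes, and the lowest count of a synthetase in any tumour was 67 (Pars2). Levels are given as CPM, counts brought to a common library size by TMM scaling. Epithelial transcripts were present in every tumour, with the keratin Krt8 at 466, 300.3, 388, 340.2 and 479 CPM in DOX tumours 1 to 5, against 323, 334, 451, 279.8 and 299 CPM in no_DOX tumours 1 to 5. The milk protein gene Csn2 was close to 0 in most tumours, while Csn3 was high in all. Mouse Hpn, read first as a check of the labels, had 26.4, 46.04, 25.1, 32.8 and 28.2 CPM in DOX tumours 1 to 5, against 25.7, 25.04, 23.02, 14.2 and 20.4 CPM in no_DOX tumours 1 to 5. Its difference in log2(CPM + 1) was 0.52 (exact permutation test, two-sided p = 0.0159, with 0.00794 the smallest p possible), and 4 of 5 DOX tumours lay above every no_DOX tumour. Without DOX 5 and no_DOX 4 the difference was 0.41 and the exact permutation p was 0.0571, where fewer tumours make the smallest possible p larger. In voom the unadjusted p was 0.0594 with a difference of 0.32. The labels do not give the species of the hepsin in the construct.

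All 20 cytosolic synthetases were lower in DOX than in no_DOX tumours by point estimate. Their log2 fold changes (DOX over no_DOX) had a median of -0.15 and ran from -0.22 to -0.01. With library sizes alone as the scaling, 18 of 20 were lower, since Aars and Cars then stood at 0.03 and 0.01. Of the 17 mitochondrial enzymes, 13 were lower and 4 were higher, with a median of -0.11 and a range of -0.47 to 0.71, and 12 were lower with library sizes alone. Over all genes tested the median was 0.00 and 49.5% were lower with TMM scaling. With library sizes alone the median over all genes tested was 0.03. The differences were small and no single synthetase passed the threshold: edgeR's quasi-likelihood test with Benjamini-Hochberg adjustment called 0 of 38 genes and 0 of 16167 overall (0.0%), with a smallest adjusted p of 0.140 among all genes. At an unadjusted p under 0.05, 12 of the 37 enzymes were lower and 0 were higher, against 7.83% lower and 8.2% higher among all genes tested. DESeq2 called 322 genes (0.748% of those tested lower and 1.24% higher), with 1 synthetase among them. Voom with sample weights, in which DOX 3 weighed 4.65, called 775 genes, 2.68% lower and 2.12% higher among those tested, with 6 synthetases, all lower, among them Kars, Eprs, Rars, Rars2 and Tars2 (adjusted p = 0.0452 to 0.0499). EdgeR called 2 genes without DOX 2 and 37 without no_DOX 3, and 0 synthetases in each of these fits.

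**Figure D1:**
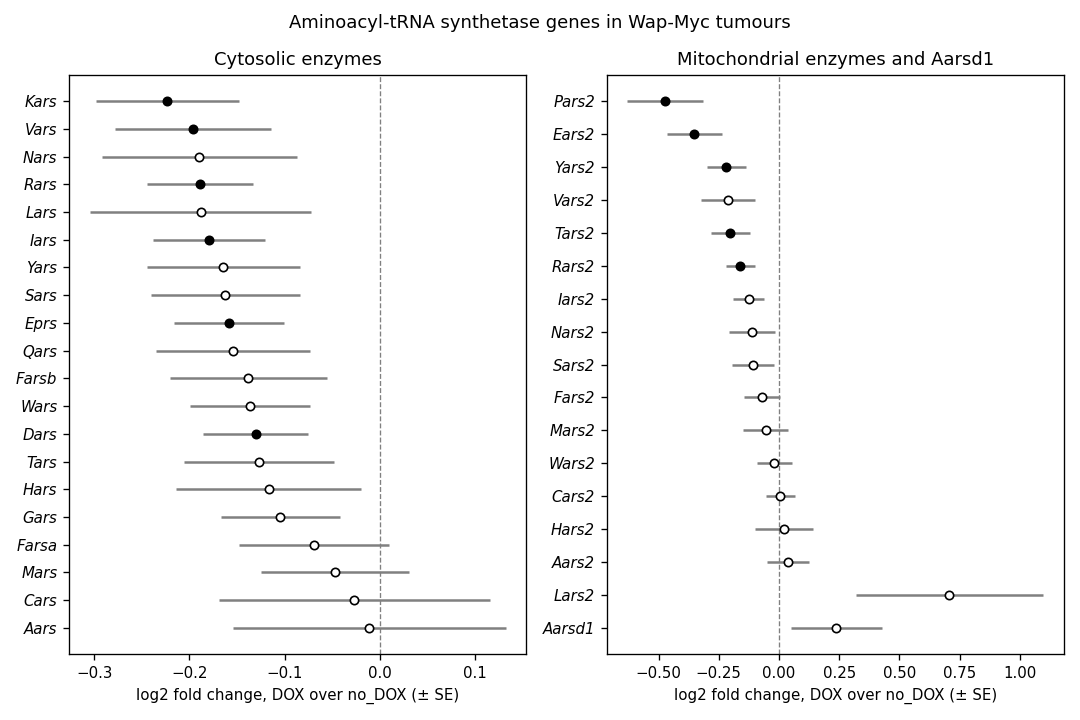
Log2 fold change (DOX over no_DOX, edgeR) of each gene with its standard error, for 20 cytosolic enzymes on the left and for 16 mitochondrial enzymes and Aarsd1 on the right; the horizontal scales differ. Filled points have an unadjusted p under 0.05 and none has an adjusted p under 0.05. The 20 cytosolic points lie below 0 (18 with library sizes alone, where the median over all genes tested was 0.03). Lars2 at 0.71 lies farthest from the other mitochondrial enzymes.

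Summed over the 20 cytosolic genes, the level was 2292, 2408, 2248, 2301 and 2265 CPM in DOX tumours 1 to 5, against 2684, 2501, 2487, 2708 and 2439 CPM in no_DOX tumours 1 to 5. The sums of the groups did not overlap. Single genes showed this order for 1.13% of those tested, a share that holds for single genes and not for sums over 20 genes. The fibroblast sums given below did not overlap either. A second measure was the median over genes of log2 CPM minus each gene's mean. It did not overlap either, with -0.0024 the highest DOX value (DOX 2) and 0.017 the lowest no_DOX value (no_DOX 3). That separation depended on the 3 cytosolic genes of chromosome 18, described below. Without them this median overlapped between groups, at 0.020 in DOX 2, against -0.040 in no_DOX 2 and 0.008 in no_DOX 3. The sums without these genes were not computed. Over the 16 mitochondrial genes other than Lars2 the sums were 492, 537, 497, 527 and 483 CPM in DOX tumours 1 to 5 and 559, 561, 514, 615 and 545 CPM in no_DOX tumours 1 to 5. These overlapped, since DOX 2 and DOX 4 exceeded no_DOX 3. In whole-tumour RNA, fewer cells of a type and less RNA per cell cannot be told apart. Cell cycle genes (Mki67, Top2a, Mcm6, Bub1b, Ccnb1) were lower for 5 of 5 genes, with sums of 1257 to 1585 CPM in DOX tumours and 1411 to 1862 CPM in no_DOX tumours. The 6 fibroblast genes were lower as well, at 791 to 1765 CPM in DOX tumours and 2078 to 3995 CPM in no_DOX tumours. The epithelial list summed to 2126 to 3040.4 CPM in DOX tumours and 1899.8 to 2876 CPM in no_DOX tumours. Of its 8 tested genes, 6 were higher and 2 lower, and Csn3 alone averaged 1349 CPM in DOX and 1373 CPM in no_DOX tumours. The part of these lists in the synthetase differences was not tested.

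Within the multi-synthetase complex, all 8 enzymes (Lars, Iars, Mars, Qars, Rars, Kars, Dars, Eprs) were lower, at a median of -0.17 on the log2 scale, and 5 of them had an unadjusted p under 0.05. Rars (ENSMUSG00000018848.4, chr11:35808381-35834506 in GRCm38, the build of all coordinates here), which charges arginine tRNA, had 98.9, 97.6, 96.98, 90.4 and 101 CPM in DOX tumours 1 to 5, against 114, 99.6, 115, 115 and 109 CPM in no_DOX tumours 1 to 5. Apart from DOX 5, the DOX tumours lay below every no_DOX tumour, and the lowest no_DOX value (tumour 2) was close to the DOX values. The fitted log2 fold change was -0.19 ± 0.06 SE, and edgeR's adjusted p was 0.215.

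Iars, the isoleucine enzyme at chr13:49682100-49734267, was at 165, 156, 158, 143 and 147 CPM in DOX tumours 1 to 5, against 167, 174, 172, 192 and 166 CPM in no_DOX tumours 1 to 5. Every DOX tumour lay below every no_DOX tumour, as for 1.13% of all genes tested (the opposite order held for 1.82%), although DOX 1 and no_DOX 5 nearly touched. The log2 fold change was -0.18 ± 0.06 SE and the adjusted p was 0.239.

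Kars, the lysine enzyme at chr8:111993443-112011323, had 170.1, 192, 168, 166 and 159 CPM in DOX tumours 1 to 5, against 207, 209.7, 172, 219 and 192 CPM in no_DOX tumours 1 to 5. Of the DOX tumours only DOX 2 lay above the lowest no_DOX value, that of no_DOX 3. Its log2 fold change of -0.22 ± 0.08 SE was the furthest below 0 among the cytosolic enzymes (adjusted p = 0.241). Eprs, at chr1:185363044-185428360, was the most abundant cytosolic member in CPM, with 325, 321, 293, 294 and 309 CPM in DOX tumours 1 to 5, against 366, 336, 315, 363 and 339 CPM in no_DOX tumours 1 to 5. Values for DOX 1 and DOX 2 lay above no_DOX 3, and the other DOX tumours lay below all no_DOX tumours (log2 fold change -0.16 ± 0.06 SE, adjusted p = 0.249). Dars, the aspartate enzyme, had 94.9, 94.1, 89.8, 88.3 and 90.7 CPM in DOX tumours 1 to 5, against 109, 98.01, 90.9, 102 and 101 CPM in no_DOX tumours 1 to 5, for a fitted difference of -0.13 ± 0.06 SE on the log2 scale (adjusted p = 0.290). Only no_DOX 3 lay within the range of the DOX values. The remaining complex enzymes Lars, Qars and Mars had log2 fold changes of -0.19, -0.15 and -0.05, and without DOX 4 Lars was at -0.30 and Mars at 0.0024. Qars was at -0.10 without no_DOX 4, and Mars at -0.08 without DOX 2.

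**Figure D2:**
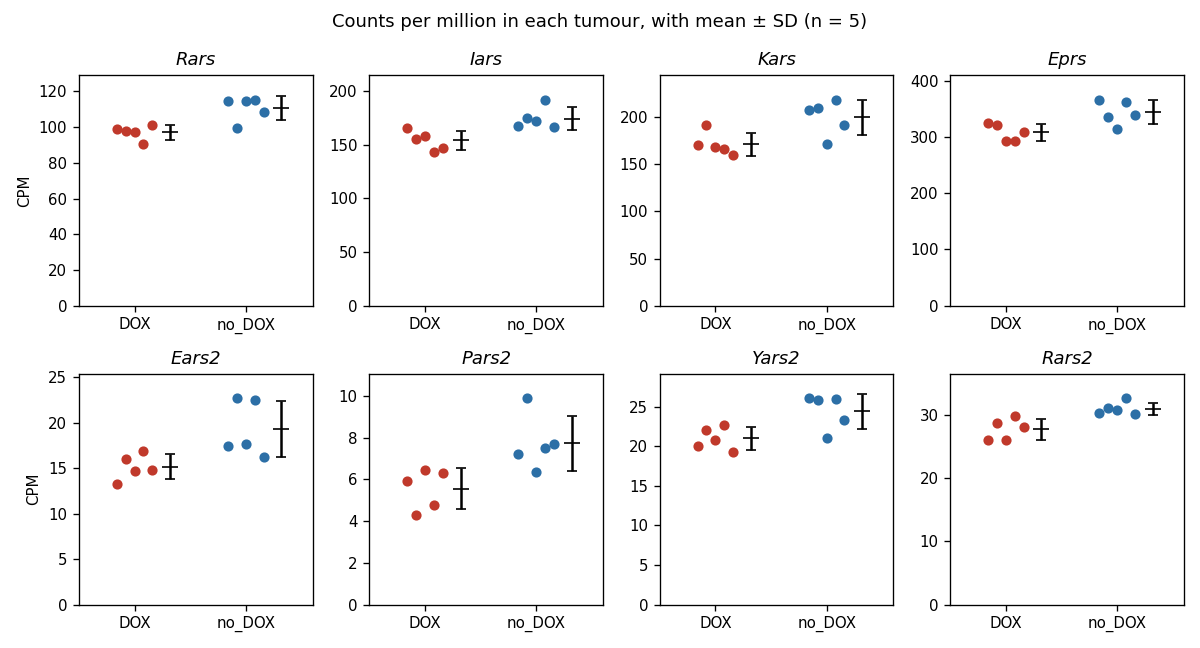
CPM in each of 5 DOX (red) and 5 no_DOX (blue) tumours for 4 cytosolic and 4 mitochondrial enzymes, with the mean and SD of each group as a black bar. Iars and Rars2 are the genes whose groups do not overlap; the vertical scales differ and start at 0.

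The 3 scaffold genes of the complex were also lower, at a median of -0.12 on the log2 scale, and none stood at an unadjusted p under 0.05. Aimp1 had 46.6, 48.9, 44.2, 42.9 and 43.7 CPM in DOX tumours 1 to 5, against 49.8, 44.6, 51.6, 50.5 and 49.6 CPM in no_DOX tumours 1 to 5 (log2 fold change -0.12 ± 0.06 SE). Aimp2 had 31.5, 33.4, 29.9, 30.3 and 29.2 CPM in DOX tumours 1 to 5, against 38.9, 30.5, 28.7, 38.3 and 36.8 CPM in no_DOX tumours 1 to 5 (log2 fold change -0.17 ± 0.09 SE). Eef1e1, also known as Aimp3, had 33.4, 33.9, 31.7, 28.9 and 26.5 CPM in DOX tumours 1 to 5, against 37.5, 28.7, 27.5, 35.3 and 34.6 CPM in no_DOX tumours 1 to 5 (log2 fold change -0.08 ± 0.10 SE), and its value depended on single tumours, at -0.03 without DOX 5 or without no_DOX 1, -0.13 without no_DOX 2 and -0.15 without no_DOX 3. The groups overlapped for all 3, with no_DOX 2 at or near the low end each time.

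Outside the complex, 12 of 12 cytosolic enzymes were lower, 1 of them at an unadjusted p under 0.05, with a median of -0.13. That 1 was Vars, the valine enzyme, with 175, 203, 173, 163 and 159.6 CPM in DOX tumours 1 to 5, against 203, 196, 175, 225 and 203 CPM in no_DOX tumours 1 to 5 (log2 fold change -0.20 ± 0.08 SE, adjusted p = 0.284). Its groups overlapped because DOX 2 was higher than 4 of the no_DOX tumours. Wars, the tryptophan enzyme, which interferon induces, had 52.3, 52.1, 47.97, 46.9 and 49.99 CPM in DOX tumours 1 to 5, against 57.7, 50.7, 52.3, 60.1 and 53.2 CPM in no_DOX tumours 1 to 5 (log2 fold change -0.14 ± 0.06 SE, adjusted p = 0.317). Wars in DOX 5 was in the middle of its group, while the summed interferon-response genes stood at 141 CPM in DOX 5 and at 44.4 to 74.6 CPM in the other tumours. Sars, which charges serine tRNA and the selenocysteine tRNA, had 108, 119, 115, 99.6 and 123 CPM in DOX tumours 1 to 5, against 123, 123, 144, 130.2 and 111 CPM in no_DOX tumours 1 to 5 (log2 fold change -0.16 ± 0.08 SE, adjusted p = 0.335).

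Of the 13 cytosolic enzymes usually counted as ATF4-responsive, 13 were lower with a median of -0.16 (3 at an unadjusted p under 0.05), and of the other 7 all were lower with a median of -0.14 (3). With library sizes alone the ATF4-responsive enzymes Aars and Cars were higher, at 0.028 and 0.011, where the median over all genes tested was 0.034. Cars, the least abundant cytosolic enzyme per kilobase of exon, had 38.1, 46.5, 41.6, 33.5 and 53.97 CPM in DOX tumours 1 to 5, against 51.3, 34.7, 50.4, 40.5 and 40.998 CPM in no_DOX tumours 1 to 5, with wide overlap and a log2 fold change of -0.03 ± 0.14 SE. Aars, which attaches alanine and was picked out here after its values were seen, was equally close to 0 at -0.01 ± 0.14 SE. With 1 tumour left out, Cars ran from -0.12 without DOX 5 to 0.04 without DOX 4, and Aars from -0.11 without no_DOX 2 to 0.06 without no_DOX 1. Yars, Tars, Gars and Farsb had log2 fold changes of -0.16, -0.13, -0.10 and -0.14, and Farsa, the partner subunit of Farsb in phenylalanine charging, had -0.07. Without no_DOX 1, Farsb was at -0.08 and Gars at -0.06, and Farsa ran from -0.12 without DOX 2 to -0.03 without no_DOX 4. Farsb was the most abundant cytosolic enzyme per kilobase of exon and had 106, 121, 101, 111 and 108 CPM in DOX tumours 1 to 5, against 139, 121, 101, 118 and 124 CPM in no_DOX tumours 1 to 5, with overlapping groups (adjusted p = 0.418). By catalytic fold, class I cytosolic enzymes had a median of -0.16 and class II cytosolic enzymes a median of -0.13.

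Promoter sequences from RefSeq (GRCm38.p6) were matched to 28 of the 38 genes, 13 cytosolic, 14 mitochondrial and Aarsd1, and searched on both strands from 250 bases before to 50 bases after the start. Motifs searched were TGATGNAA, a core bound by ATF4 with C/EBP partners, CACGTG, the E-box bound by Myc with Max, and GGGCGG, the GC box. TGATGNAA stood in 5 of 13 cytosolic promoters (Aars, Gars, Iars, Tars, Yars), in 0 of 14 mitochondrial promoters and in 4.51% of 27025 promoters. CACGTG stood in 4 of 13 cytosolic promoters (Aars, Farsb, Iars, Tars), in 1 of 14 mitochondrial promoters (Ears2) and in 8.09% of all. GGGCGG was in 8 of 13 cytosolic, 11 of 14 mitochondrial and 38.2% of all promoters. These matches describe letters in a window and are no evidence of binding. The stretches below come from 4 genes with either of the first motifs, and from Kars and Eprs, which voom called lower and whose promoters held neither. They are 5′ to 3′ on the gene's strand, with CACGTG, TGATGNAA or its reverse complement in capitals.
Aars (chr8:111033672-111033761, plus strand): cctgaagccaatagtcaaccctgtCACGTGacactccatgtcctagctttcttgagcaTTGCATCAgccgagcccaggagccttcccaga
Gars (chr6:55037911-55038000, plus strand): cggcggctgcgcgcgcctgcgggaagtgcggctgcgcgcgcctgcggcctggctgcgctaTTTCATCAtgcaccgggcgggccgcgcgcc
Iars (chr13:49682040-49682129, plus strand): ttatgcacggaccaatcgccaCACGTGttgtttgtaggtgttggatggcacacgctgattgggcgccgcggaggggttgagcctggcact
Tars (chr15:11399659-11399748, minus strand): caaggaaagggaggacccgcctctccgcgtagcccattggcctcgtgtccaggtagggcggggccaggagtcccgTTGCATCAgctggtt
Kars (chr8:112011355-112011444, minus strand): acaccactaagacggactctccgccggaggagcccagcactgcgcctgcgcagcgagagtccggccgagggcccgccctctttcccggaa
Eprs (chr1:185362954-185363043, plus strand): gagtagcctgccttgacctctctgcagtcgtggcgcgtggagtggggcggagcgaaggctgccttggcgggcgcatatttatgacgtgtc
The Aars stretch covers 170 to 81 bases before the RefSeq start and the others the 90 bases before theirs. RefSeq starts can differ from the GENCODE gene bounds used for the other coordinates. By those bounds the Aars stretch lies inside the gene, and the Iars and Tars stretches partly so. Just after the start, Aars and Iars had a further match to TGATGNAA, and Tars had a match to CACGTG. Log2 fold changes were -0.01 for Aars, -0.10 for Gars, -0.18 for Iars and -0.13 for Tars, and -0.22 for Kars and -0.16 for Eprs. Kars and Eprs were taken from genes called lower, so these values cannot compare promoters with and without the motifs. Yars and Farsb, also with a match, were at -0.16 and -0.14. Dars, Qars and Sars, with neither of the first motifs, were at -0.13, -0.15 and -0.16.

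Among the mitochondrial enzymes, 6 were lower at an unadjusted p under 0.05, and Pars2 and Ears2 among them lay further below 0 than any cytosolic enzyme. Ears2, the mitochondrial glutamate enzyme, had 13.3, 16.03, 14.7, 16.9 and 14.8 CPM in DOX tumours 1 to 5, against 17.4, 22.7, 17.7, 22.5 and 16.2 CPM in no_DOX tumours 1 to 5, for a fitted difference of -0.35 ± 0.11 SE on the log2 scale (adjusted p = 0.239). Its DOX values were close together and overlapped the no_DOX values only through DOX 4. Pars2, the mitochondrial proline enzyme and the least abundant synthetase, had 5.93, 4.29, 6.47, 4.79 and 6.33 CPM in DOX tumours 1 to 5, against 7.20, 9.89, 6.37, 7.52 and 7.69 CPM in no_DOX tumours 1 to 5 and the fitted log2 fold change furthest below 0 of all members, -0.47 ± 0.16 SE (adjusted p = 0.239). The overlap came from DOX 3, which was level with no_DOX 3.

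Rars2, the mitochondrial arginine enzyme, had 25.9, 28.6, 26.04, 29.7 and 28.04 CPM in DOX tumours 1 to 5, against 30.3, 30.997, 30.7, 32.6 and 30.03 CPM in no_DOX tumours 1 to 5. It was the other synthetase with every DOX tumour below every no_DOX tumour, by a narrow margin between DOX 4 and no_DOX 5 (log2 fold change -0.16 ± 0.06 SE, adjusted p = 0.252). Yars2, for tyrosine, had 20.1, 22.1, 20.8, 22.7 and 19.2 CPM in DOX tumours 1 to 5, against 26.04, 25.8, 20.98, 25.9 and 23.3 CPM in no_DOX tumours 1 to 5 (log2 fold change -0.22 ± 0.08 SE, adjusted p = 0.251). Tars2, for threonine, had 54.2, 64.7, 54.6, 56.2 and 51.9 CPM in DOX tumours 1 to 5, against 66.5, 61.8, 57.6, 74.4 and 63.6 CPM in no_DOX tumours 1 to 5 (log2 fold change -0.20 ± 0.08 SE, adjusted p = 0.272). For both of these the lowest no_DOX value was that of no_DOX 3.

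Vars2, Iars2, Nars2, Sars2, Fars2, Mars2 and Wars2 lay between -0.21 and -0.02 on the log2 scale. Wars2 stood at 0.01 with library sizes alone, where the median over all genes tested was 0.03. Cars2, Hars2 and Aars2 lay at 0.01, 0.02 and 0.04. Vars2 was at -0.32 without DOX 2, and both Nars2 and Sars2 were at -0.06 without no_DOX 4. With 1 tumour left out, Fars2 ran from -0.11 (no_DOX 1) to -0.03 (DOX 5), Mars2 from -0.11 (no_DOX 2) to -0.0020 (DOX 1), and Wars2 from -0.06 (no_DOX 3) to 0.0014 (DOX 2). Cars2 ran from -0.02 (no_DOX 2) to 0.03 (DOX 2), Hars2 from -0.11 (DOX 4) to 0.06 (DOX 5) and Aars2 from -0.02 (no_DOX 3) to 0.08 (no_DOX 4). The mitochondrial median moved to -0.06 without no_DOX 4, while leaving out any other single tumour kept it between -0.15 and -0.10. The medians of the cytosolic and mitochondrial enzymes differed by -0.03, and by -0.073 to -0.0018 with 1 tumour left out.

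Per kilobase of exon, the cytosolic enzymes were more abundant than their mitochondrial counterparts for all 17 amino acid pairs in the mean over the 10 tumours, and in each single tumour for 16 of the 17, with Farsa standing for phenylalanine and Eprs entering for both glutamate and proline. The ratio of mean CPM per kilobase had a median of 3.35 and ran from 1.32 for leucine to 13.0 for asparagine. The leucine ratio, Lars over Lars2, was 0.991 in the mean of the DOX tumours and 1.84 in that of the no_DOX tumours, and Lars2 was the higher of the pair in DOX 3 and DOX 5 (ratios of 0.871 and 0.443). Whether non-coding sequence adds to the Lars2 counts was not tested. The cytosolic enzymes had a median level of 22.6 CPM per kilobase, from 6.56 for Cars to 43.9 for Farsb. The mitochondrial enzymes had a median of 5.17, from 2.15 for Pars2 to 28.8 for Lars2. These levels use all annotated exons of a gene, so a gene with unused long exons reads low. Both enzymes of a pair were lower with doxycycline in 13 of 17 pairs, and the mitochondrial one was further below 0 in 8.

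**Figure D3:**
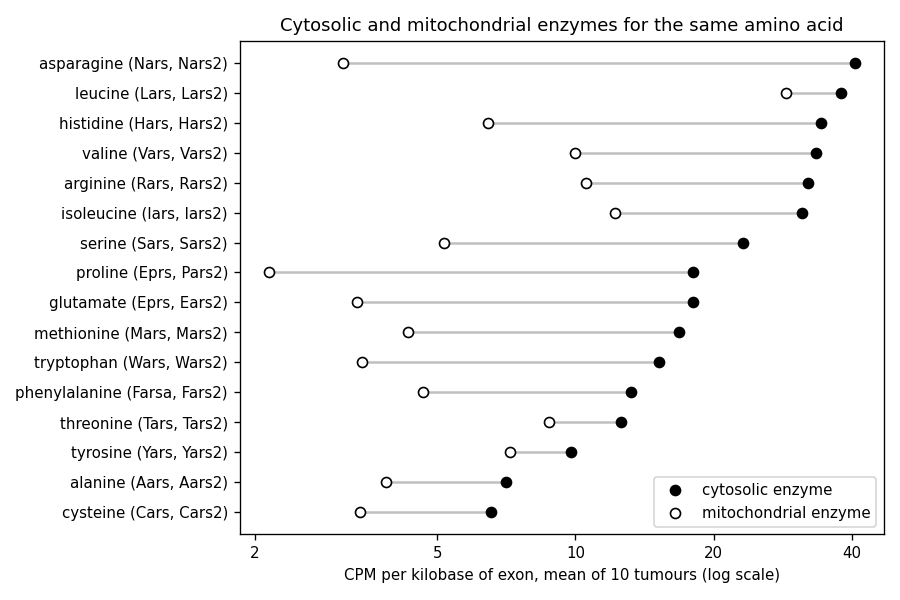
Mean CPM per kilobase of exon over the 10 tumours (log scale) for the cytosolic (filled) and mitochondrial (open) enzyme of 16 amino acids. The filled point lies to the right in all 16 pairs, by 13.0 times for asparagine and by 1.32 times for leucine, where the DOX tumours alone give 0.991 times.

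Hars, Lars and Nars, the cytosolic enzymes for histidine, leucine and asparagine, and Hars2 lie on chromosome 18, and all 4 were higher in DOX 4 than in the other DOX tumours. They were described together after their values were seen. Hars had 73.5, 75.6, 78.8, 103 and 72.2 CPM in DOX tumours 1 to 5, against 87.8, 91.6, 82.2, 93.97 and 80.95 CPM in no_DOX tumours 1 to 5. Lars had 168, 194, 184, 244 and 159 CPM in DOX tumours 1 to 5, against 224, 237, 210.1, 229 and 181 CPM in no_DOX tumours 1 to 5. Nars had 152, 151, 158, 206 and 159.7 CPM in DOX tumours 1 to 5, against 199.8, 185, 213, 185 and 158 CPM in no_DOX tumours 1 to 5. DOX 4 was the highest of the 5 DOX tumours for each of these genes, and for Hars and Lars the highest of all 10 tumours.

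Hars2, which shares a bidirectional start with Hars, had 24.5, 25.5, 27.1, 37.7 and 24.3 CPM in DOX tumours 1 to 5, against 25.4, 30.3, 28.4, 26.3 and 26.5 CPM in no_DOX tumours 1 to 5. The pattern extended to the whole chromosome. Among 262 genes of chromosome 18 with a mean of at least 8 CPM, the median level in DOX 4 was 0.47 above each gene's median over the 10 tumours on the log2 scale, or 1.39 times, and DOX 4 was the highest tumour for 208 of them (79.4%). Elsewhere DOX 4 was highest for 1109 of 9799 genes (11.3%), and the medians of the 19 other chromosomes ran from -0.05 to 0.09 over all tumours. In tumours other than DOX 4, the chromosome 18 median ran from -0.11 in DOX 2 to 0.10 in no_DOX 3. Both ends lay outside the range of the other chromosomes. So did DOX 1 (-0.063), DOX 5 (-0.064), no_DOX 4 (-0.058) and no_DOX 5 (-0.063), which lay below it. Leaving out DOX 4 does not remove these shifts. The excess in DOX 4 was 0.51, 0.47 and 0.44 in the stretches from 0 to 30, 30 to 60 and 60 to 91 Mb. DNA copy number was not measured.

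Without DOX 4, the log2 fold changes moved to -0.22 for Hars, -0.30 for Lars, -0.28 for Nars and -0.11 for Hars2, against -0.12, -0.19, -0.19 and 0.02 with it. Adjusted p-values from edgeR without DOX 4 were 0.288 for Hars, 0.290 for Lars, 0.288 for Nars and 0.471 for Hars2. The sign for Hars2 thus depended on DOX 4, and it was also below 0 without no_DOX 1 (-0.0043). Without the genes of chromosome 18 the cytosolic median was -0.14 and the mitochondrial median -0.12.

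**Figure D4:**
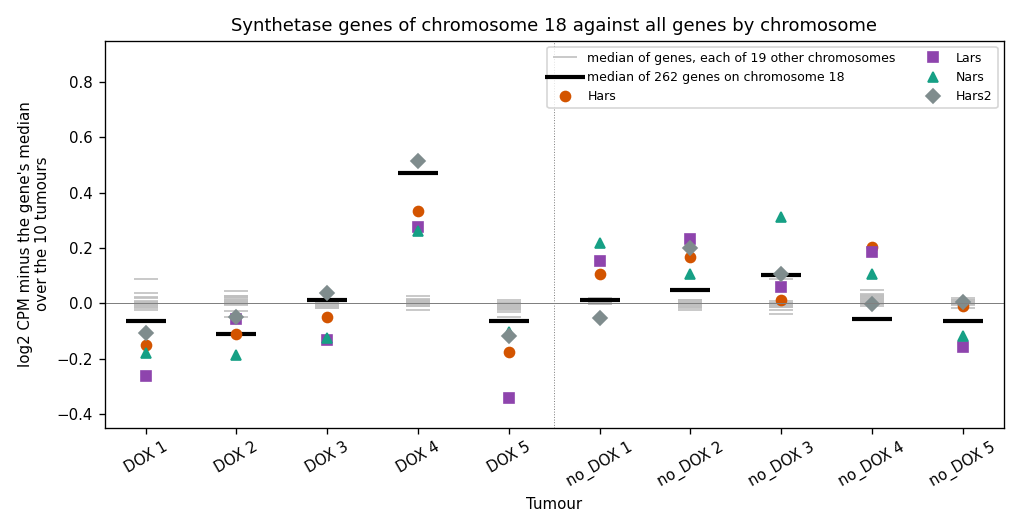
Log2 CPM minus each gene's median over the 10 tumours, for 4 synthetase genes of chromosome 18 (coloured symbols), the median of 262 genes of that chromosome (black bars) and the medians of the 19 other chromosomes (grey bars). DOX 4 stands out, with a chromosome 18 median of 0.47, while those of the other tumours run from -0.11 in DOX 2 to 0.10 in no_DOX 3.

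Lars2 (ENSMUSG00000035202.8, chr9:123366927-123462666), the mitochondrial leucine enzyme, ran opposite to most members, with 172, 239.6, 436, 389 and 741 CPM in DOX tumours 1 to 5, against 285, 263, 132, 369.7 and 161 CPM in no_DOX tumours 1 to 5. The spread within each group was wide and the groups overlapped (log2 fold change 0.71 ± 0.39 SE, adjusted p = 0.385), and the fitted change was 0.35 without DOX 5. Its SD was 221 CPM in DOX tumours and 96.4 CPM in no_DOX tumours. Iars2, another mitochondrial enzyme chosen after its values were seen, varied little by comparison, with 111, 102, 103, 106 and 97.7 CPM in DOX tumours 1 to 5, against 116, 119, 102, 123 and 107 CPM in no_DOX tumours 1 to 5.

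Some non-coding transcripts, chosen after the values were seen, showed the Lars2 pattern. Gm15564 had 9.54, 14.2, 28.4, 24.6 and 67.4 CPM in DOX tumours 1 to 5, against 24.1, 15.4, 7.09, 26.4 and 6.60 CPM in no_DOX tumours 1 to 5. The 5.8S ribosomal RNA gene n-R5-8s1 had 5.01, 5.89, 21.1, 15.9 and 41.4 CPM in DOX tumours 1 to 5, against 10.6, 9.74, 3.67, 19.4 and 2.48 CPM in no_DOX tumours 1 to 5. Mir6236 had 20.2, 34.9, 83.3, 58.7 and 130.1 CPM in DOX tumours 1 to 5, against 46.8, 46.4, 23.98, 73.1 and 21.5 CPM in no_DOX tumours 1 to 5. All were highest in DOX 5 and low in DOX 1, no_DOX 3 and no_DOX 5, as was Lars2. The Lars2 transcript shares 52 identical bases with Gm15564 in its 3′ untranslated region (transcript bases 3278 to 3329 of 3894, chr9:123462048-123462099), and reads were 75 bases long. Ribosomal RNA was depleted before sequencing. Abundant non-coding loci here pool the annotated ribosomal RNA genes, nuclear and mitochondrial, with a few other loci, Gm42418 among them. Their share of counts was 24.5 to 30.1% in DOX tumours and 25.97 to 33.3% in no_DOX tumours. Over all tumours this pooled share and Lars2 had no common order, and the share does not give the level of any single locus in it. DOX 1 and no_DOX 5 had shares of 25.7 and 25.97% with Lars2 at 172 and 161 CPM. No_DOX 4 had 33.2% with Lars2 at 369.7 CPM. The share was the lowest of all 10 tumours in DOX 5, where Lars2 was highest, and the highest in no_DOX 3, where Lars2 was lowest. Gm42418, an abundant non-coding locus, had 17283, 24187, 21309.7, 21957 and 19324 CPM in DOX tumours 1 to 5, against 19606, 18972, 26292, 25950.4 and 17825 CPM in no_DOX tumours 1 to 5, and its highest value was likewise in no_DOX 3. The part of these sequences in the Lars2 counts was not tested.

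**Figure D5:**
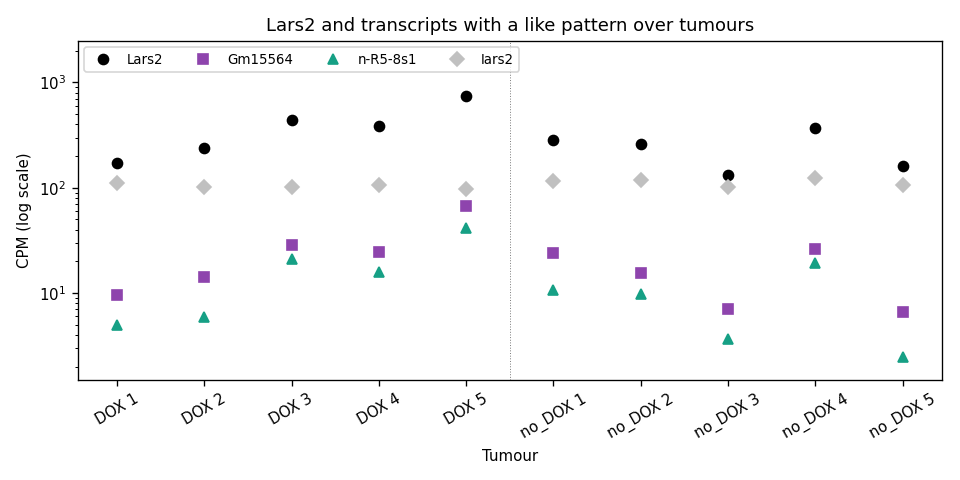
CPM (log scale) in each tumour for Lars2, for the non-coding transcripts Gm15564 and n-R5-8s1, and for Iars2, another mitochondrial synthetase. Lars2 and the non-coding transcripts are highest in DOX 5 (741, 67.4 and 41.4 CPM), while Iars2 stays between 97.7 and 123 CPM.

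Aarsd1, which removes wrongly attached amino acids from alanine tRNA, had 3.56, 4.94, 3.32, 3.43 and 3.20 CPM in DOX tumours 1 to 5, against 2.15, 3.20, 2.88, 4.11 and 3.28 CPM in no_DOX tumours 1 to 5, with overlapping groups and a log2 fold change of 0.24 ± 0.19 SE (adjusted p = 0.542). The fitted change was 0.10 without DOX 2 and 0.13 without no_DOX 1. Its exons share 41.0% of their length with the predicted gene Gm27029 on the same strand, so reads there may have been split or dropped. Aars shares 1326 exon bases with Exosc6, which was listed at 0 in all tumours. Hars and Hars2 overlap in 195 exon bases on opposite strands. Iars2 overlaps Rab3gap2 on the opposite strand in 2034 exon bases, 22.9% of its exon length. The counting's strand setting is unknown here. Tarsl2, a threonyl-tRNA synthetase-like gene outside the naming rule and chosen after its values were seen, had 23.001 ± 3.78 CPM in DOX tumours and 27.4 ± 3.62 CPM in no_DOX tumours (SD, n = 5), for a log2 fold change of -0.25 ± 0.13 SE.

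Genes that act before and after tRNA charging differed on the same small scale. All 14 genes of tRNA maturation and export were lower, 3 at an unadjusted p under 0.05, with a median of -0.17. The smallest p were those of Nsun2, a tRNA cytosine methyltransferase, with 258 ± 31.6 CPM in DOX tumours and 310.1 ± 33.8 CPM in no_DOX tumours (SD, n = 5), and Thg1l, which adds the guanosine of histidine tRNA, with 16.3 ± 2.31 CPM in DOX tumours and 20.1 ± 2.57 CPM in no_DOX tumours (SD, n = 5). Their adjusted p-values were 0.252 and 0.264 in edgeR, and voom called Thg1l (adjusted p = 0.0428).

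The 6 tested cytosolic elongation factors were lower (median -0.13, 0 at an unadjusted p under 0.05), led by Eef1g (-0.18) and Eif5a (-0.16). Of 10 mitochondrial translation factors, 9 were lower (median -0.14, 3 at an unadjusted p under 0.05), led by Tufm (-0.21), the mitochondrial elongation factor that brings charged tRNA to the ribosome, and the ribosome recycling factor Mrrf (-0.22). Mitochondria have no glutaminyl-tRNA synthetase of their own and convert glutamate already attached to the tRNA, and 2 of the 4 genes for this step and for initiator formylation were lower, Gatb (-0.33) and Gatc (-0.18). Of 5 selenocysteine genes 3 were lower, with the smallest p in Sepsecs (-0.21) and Eefsec (-0.24). Of 4 editing genes 2 were lower, Dtd2 (-0.32) and Dtd1 (-0.19), with Dtd1 at -0.30 without DOX 2 and -0.11 without DOX 5.

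The amino acid response list was divided, with 10 of 18 genes lower (6 at an unadjusted p under 0.05) and 8 higher (2), and its median was -0.10. Psat1, of serine synthesis, and Shmt2, the mitochondrial serine hydroxymethyltransferase, had the smallest p and log2 fold changes of -0.35 and -0.44, and DESeq2 and voom called both. Asns (-0.57) and Aldh18a1 (-0.33) were likewise called by DESeq2 and voom. The 2 higher genes at an unadjusted p under 0.05 were Sesn2 (0.68) and Trib3 (0.35), which neither called. Atf4 itself stood at 0.12 ± 0.10 SE, and at 0.05 without no_DOX 2. No gene of these lists had an adjusted p under 0.05 in edgeR.

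Markers of other cell types gave summed levels of 194 to 328 CPM in DOX tumours and 185 to 223 CPM in no_DOX tumours for macrophages (1 of 5 genes lower), 6.57 to 12.1 CPM in DOX tumours and 7.45 to 17.96 CPM in no_DOX tumours for T and NK cells (3 of 4 tested genes lower) and 69.7 to 112 CPM in DOX tumours and 80.1 to 107 CPM in no_DOX tumours for endothelium (3 of 4 lower). The muscle genes summed to 37.5 CPM in DOX 1, 18.5 CPM in DOX 3 and 38.2 CPM in no_DOX 5, and to under 1 CPM in the others. Adipocyte markers summed to 2.17 to 13.8 CPM in DOX tumours and 4.32 to 9.55 CPM in no_DOX tumours, and B and plasma cell markers to 0.449 to 8.26 CPM in DOX tumours and 0.180 to 2.95 CPM in no_DOX tumours. Of 6 tested interferon-response genes, 1 was lower. Their part in the synthetase differences was not tested.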

How the data were processed

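Whole-tumour RNA was depleted of ribosomal RNA and read single-end to 75 bases, per the labels' protocols. The deposited values are raw read counts, 1 whole number for each Ensembl gene and tumour. STAR 2.6.0c and featureCounts, with bcl2fastq, Trimmomatic and DESeq2 and the build GRCm38, are named in the submitters' processing notes. Which annotation release and strand setting featureCounts used is not given in the sources used here. Symbols, exon lengths and coordinates came from GENCODE M21 (54587 of 55335 identifiers with the same version), and 55154 identifiers had a symbol. Groups and replicate numbers came from titles. Each of 20 pairs of libraries within groups differed beyond counting noise (chi-square over degrees of freedom from 7.36 to 46.1).

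Counts were tested in edgeR 4.0.16 (R 4.3.3; TMM, filterByExpr with minimum count 10 and total 15, quasi-likelihood test, Benjamini-Hochberg adjustment over 16167 genes, threshold 0.05), checked first on simulated data. Standard errors were taken from the fold change and F (fold change over root F). For Hpn, log2(CPM + 1) was compared by exact permutation. Alternatives were DESeq2 1.42.0, limma 3.58.1 voom with sample weights, DESeq2 size factors, library size only, library sizes without abundant non-coding loci, no filter, a filter of 1 CPM in 5 libraries, robust fitting, a 0.1 threshold, a 0.1 pseudocount, a replicate block, each library left out in turn, and DOX 5 and no_DOX 4 left out together. Every member but 1 is named. Values in every tumour are given for Hpn, the 8 cytosolic and 6 mitochondrial members with the smallest p, the most and least abundant per length, Wars, Aarsd1, and the scaffold genes, and 2 genes of each other list with the smallest p are named; other genes with printed values were chosen after those values were seen. The counts include 1 member that is not reported here on its own. The members and lists were chosen with earlier results of these data known.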

Additional observations from a re-analysis of the deposited data

Results flagged for a closer look

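Of 84 groups of 5 tumours checked, 8 held a value far from the other 4 in its group; chance alone gives about 1 in 20 such groups. In DOX 4, Hars (103 CPM), Nars (206 CPM) and Hars2 (37.7 CPM) stood above the other DOX tumours, and all 3 genes lie on chromosome 18. In DOX 2, Farsa (66.4 CPM), Vars2 (64.9 CPM) and Aarsd1 (4.94 CPM) stood above the other DOX tumours. In no_DOX 2, Yars (50.7 CPM) and the scaffold gene Aimp1 (44.6 CPM) stood below the other no_DOX tumours.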

How the results depend on the processing

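The number of genes called depended on the test, with 0 in edgeR, 322 in DESeq2, 775 in voom, 7 with a replicate block and 0 to 37 with 1 tumour left out. The synthetases called numbered 0 in edgeR, 1 in DESeq2, 6 in voom and 0 with the block or with 1 tumour left out. Same-numbered tumours deviated together with correlations of 0.453, 0.295, 0.172, 0.128 and 0.0538, so 1 of the 5 lay under the 0.1 required of every pair and the numbers were not taken to pair the tumours. Of the tumours, 1 of 5 DOX and 2 of 5 no_DOX correlated best with their own number. With 1 tumour left out, 17 to 20 cytosolic and 12 to 15 mitochondrial enzymes were lower, and the median log2 fold changes were -0.17 to -0.13 and -0.15 to -0.06. The Hpn difference was 0.38 to 0.60 with 1 tumour left out, 0.41 without both DOX 5 and no_DOX 4, and 0.32 in voom. With library sizes alone, Cars was 0.011 and Aars 0.028, where the median over all genes tested was 0.034 (0.0024 with TMM scaling). With 1 tumour left out, Cars was -0.12 to 0.044, Aars -0.11 to 0.063 and Hars2 -0.11 to 0.065. The cause of these changes was not tested. Medians without Lars2 or without chromosome 18 were added after seeing the data. In DOX 4, the shallowest library, the depth was 14256948 counts, which limits Pars2 and Aarsd1 most.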

Other observations

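Several synthetase genes start within 1000 bases of an oppositely oriented neighbour, and the pair did not always lean the same way. Kars (log2 fold change -0.22) starts 75 bases from Terf2ip, a telomere-binding protein gene, which was at 0.24. Yars (-0.16) starts 33 bases from S100pbp, at 0.23. Rars2 (-0.16) starts 13 bases from Orc3, an origin recognition complex gene, at -0.21, and Sars2 (-0.11) starts 172 bases from Mrps12, a mitochondrial ribosomal protein gene, at -0.26. Both genes were also lower for Ears2 (-0.35) and Ubfd1 (-0.08), Fars2 (-0.07) and Lyrm4 (-0.30), and Wars (-0.14) and Wdr25 (-0.27). None of these neighbours had an edgeR adjusted p under 0.05 (0.210 to 0.565, apart from Hars2 beside Hars at 0.949).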
